A study of Mus musculus with 66 samples.

Results

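Birth was examined in the cerebellum of C57BL/6J mice, an inbred strain, by setting newborn mice (P0) against embryos of embryonic day 19 (E19), the last embryonic age sampled. The 6 arrays were chosen by their strain and age labels, 3 from P0 and 3 from E19, out of 66 arrays in the whole series. Each array was hybridised with total RNA from whole cerebellum, and no treatment and no genetic change is named for either group. The other C57BL/6J arrays, from E12 to E18 and from P3 to P9, entered the fit only for its estimate of spread and for the neighbouring ages. The labels call the replicates biological. The sources used here do not give litter, sex, hour of collection, hours since birth or the number of cerebella pooled in a sample, so the p-values measure the spread between these samples.

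At birth a mouse leaves a warm, oxygen-poor uterus fed by the placenta. Body temperature falls, oxygen tension rises, and the steady supply of maternal glucose is replaced by a short fast and then by fat-rich milk, while glucocorticoids and catecholamines surge. Genes that read these changes are well known: the Mondo/ChREBP factors drive Txnip and Arrdc4 when glucose metabolites rise, HIF drives Vegfa when oxygen is low, the metal-responsive factor Mtf1 drives metallothioneins, and Cirbp and Rbm3 are induced in cooled cells. In the cerebellum birth falls in a time of granule cell progenitor division in the external granular layer and of early Purkinje cell maturation.

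The layout of the arrays limits the comparison and was examined first. All 3 P0 arrays lay on 2 chips with later numbers and all 3 E19 arrays on 2 chips with earlier numbers, with 0 chips shared. P0 replicates 1 and 2 shared a chip. Age and chip cannot be told apart from the 6 arrays alone. Both families of chip numbers do occur together in 3 other C57BL/6J ages (E12, E14 and P3) and in 10 groups of strain and age over both strains. The difference was therefore given in 3 ways: from the 12 C57BL/6J age means, with chip family as a fixed term, and with each chip as a fixed block in a fit of all 66 arrays, where the P0 and E19 chips are linked only through other ages and the DBA/2J strain. P0 replicates 1 and 2 correlated with r = 0.9937 across probes and replicate 3 with them at 0.9676 and 0.9687, against 0.9811 to 0.9919 among the E19 arrays, and P0 and E19 arrays correlated at 0.9443 to 0.9753. Median signals were 82.95 to 85.71 at P0 and 80.75 to 83.41 at E19. Levels below are log2(signal + 1) after quantile normalization, on which the array median was about 6.4, and probes close to it carry little measured signal.

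Defining cerebellar markers were measured well above the array median in both groups. The engrailed gene En1, a factor of the midbrain-hindbrain boundary, stood at 11.57, 11.18 and 10.96 on the P0 arrays and 11.04, 10.71 and 10.93 on the E19 arrays. Zic1, a granule lineage factor, stood at 13.24, 12.60 and 13.62 at P0 and 13.88, 13.31 and 13.66 at E19. Of other tissues, the choroid plexus gene Ttr lay at 6.96, 7.30 and 7.07 at P0 and 7.31, 7.41 and 7.41 at E19. Otx2, a midbrain factor that granule cell progenitors of the posterior cerebellum also express, stood at 10.01, 9.95 and 9.71 at P0 and 10.18, 9.97 and 9.80 at E19. The haemoglobin genes were high at both ages: Hba-a1 stood at 12.96, 13.18 and 13.19 at P0 and 13.60, 13.25 and 12.95 at E19. In such bulk tissue, fewer cells of a type and less RNA per cell cannot be told apart.

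Of 25843 probes kept, 4949 (19.2%) passed an adjusted p of 0.05, 2562 higher and 2387 lower at P0 (limma, Benjamini-Hochberg; such probes are said to be called), and 406 (1.57%) passed it with a change of at least 2-fold. With 1 probe for each of 13706 named genes, 2850 (20.8%) were called, 1503 (11%) higher and 1347 (9.83%) lower. The median change over all genes was 0.03. The counts given below for gene lists stand beside these shares. With the arrays scaled to equal medians in place of the quantile step 1318 probes were called higher and 2873 lower. All 3 P0 arrays lay above all 3 E19 arrays for 19.5% of these genes and below them for 15.6%. By comparison limma called 0 probes between E18 and E19, where 1552 had an unadjusted p under 0.05, and 2626 (10.2%) between P0 and P3. The test of the step at birth against the step before it called 485 probes (1.88%). The E18 and E19 arrays all lie on earlier-numbered chips, so the step before birth does not cross chip families as the step at birth does. With array weights 1788 probes were called between E18 and E19, beside 9875 between E19 and P0. With chip family as a term 2772 probes were called (10.7%), of which 1929 had been called in the same direction without it, and by gene 8.48% were higher and 3.21% lower. With each chip as a block 2388 were called (9.24%), 1077 of them shared with the calls made without it, and by gene 4.92% were higher and 4.04% lower. Calls that held in both of these fits and without each of the 6 arrays in turn numbered 571 probes and 287 genes, 186 higher and 101 lower at P0.

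Promoters are shown for 4 of the genes described next, which were called higher at P0 and are each known to be regulated through a short core motif. The sequences are those of RefSeq on build GRCm38.p6, from 250 bases before to 50 bases after the annotated start, 5′ to 3′ along the gene, and for Cirbp the more upstream of its listed starts. Capitals mark the E-box core CACGTG in Arrdc4, the metal response core TGCACNC in Mt1 and the mild-cold response element TCCCCGCC in Cirbp. Both strands were searched, and Txnip, searched for CACGTG, has no capitals. The motifs do not overlap each other here.
Arrdc4, chr7:68749189-68749488, minus strand: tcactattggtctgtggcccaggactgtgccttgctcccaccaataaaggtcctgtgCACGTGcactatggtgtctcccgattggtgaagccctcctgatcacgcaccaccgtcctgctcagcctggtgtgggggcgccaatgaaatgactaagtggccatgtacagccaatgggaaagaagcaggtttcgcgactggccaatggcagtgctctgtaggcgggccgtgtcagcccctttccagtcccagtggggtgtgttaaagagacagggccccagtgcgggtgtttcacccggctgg
Txnip, chr3:96557707-96558006, plus strand: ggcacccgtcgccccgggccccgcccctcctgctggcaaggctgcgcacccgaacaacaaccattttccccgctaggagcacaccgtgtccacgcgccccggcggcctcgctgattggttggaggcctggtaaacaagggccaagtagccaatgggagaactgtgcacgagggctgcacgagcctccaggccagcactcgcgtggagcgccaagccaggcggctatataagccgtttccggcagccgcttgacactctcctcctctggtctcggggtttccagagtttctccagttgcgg
Mt1, chr8:94178839-94179138, plus strand: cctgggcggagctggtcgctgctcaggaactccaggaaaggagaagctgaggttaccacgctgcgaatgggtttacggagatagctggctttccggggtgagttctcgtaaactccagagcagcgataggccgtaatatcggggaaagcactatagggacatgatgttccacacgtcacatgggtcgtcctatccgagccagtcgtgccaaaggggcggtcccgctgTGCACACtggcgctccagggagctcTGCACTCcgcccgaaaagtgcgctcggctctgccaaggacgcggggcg
Cirbp, chr10:80167589-80167888, plus strand: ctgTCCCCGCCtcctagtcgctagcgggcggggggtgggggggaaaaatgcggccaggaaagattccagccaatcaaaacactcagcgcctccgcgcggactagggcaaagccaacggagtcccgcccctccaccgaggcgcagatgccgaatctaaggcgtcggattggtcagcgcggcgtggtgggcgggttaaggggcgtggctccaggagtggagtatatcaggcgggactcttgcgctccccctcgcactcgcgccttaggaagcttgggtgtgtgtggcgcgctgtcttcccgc
Arrdc4 held 1 CACGTG, with its first base at position -193 from the start, and these exact letters are absent from this window of Txnip. E-boxes that differ from CACGTG in any base were not searched for, so a Mondo/ChREBP site of another spelling is not excluded in Txnip. The Txnip window does hold the letters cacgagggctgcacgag, in which CACGAG, which differs from CACGTG in 1 base, occurs repeatedly. Other spellings of the metal response core were not searched for in Mt1 either. Mt1 held TGCACNC at -23 and 3, and Cirbp held TCCCCGCC at -247. Of 32851 mouse promoters of the same length, 7.15% held CACGTG, 12.6% held TGCACNC and 5.38% held TCCCCGCC, so each match is a description of these letters and not a site shown to be used.

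The largest rise at birth was that of Arrdc4, an arrestin-family adaptor that lowers glucose uptake. Its level was 10.18, 10.49 and 10.43 on the P0 arrays, against 8.08, 8.08 and 8.25 on the E19 arrays. Every P0 array lay far above every E19 array, and the difference was 2.23 ± 0.23 (log2 ± SE, n = 3 arrays each; 4.69-fold; limma adjusted p = 1.78e-07). It was 2.17 with the chip family term and 2.33 with the chip block. A dimmer Arrdc4 probe, not used by the rule, was called in the opposite direction (-0.93). Its close relative Txnip, an inhibitor of thioredoxin and of glucose uptake, stood at 10.55, 11.07 and 10.71 at P0, against 9.74, 9.67 and 9.49 at E19. All P0 values again exceeded all E19 values, with a rise of 1.14 ± 0.17 (adjusted p = 4.12e-05), and of 1.42 and 1.76 in the fits with chip family and chip. At P3 Txnip stayed high (11.30, 11.06 and 10.97), as did Arrdc4 (9.71, 9.44 and 9.89), and the step between P0 and P3 did not pass for either gene (adjusted p = 0.205 and 0.0527). Over the 7 measured genes of this glucose-sensing group 2 rose and 1, Mlx, the partner of the Mondo factors, was called lower at -0.41 ± 0.13, a call that both chip fits lost (0.03 with the chip block). The sensor gene Mlxip itself changed by -0.05 and did not pass. Over all genes 11% were called higher and 9.83% lower.

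The cold-inducible RNA-binding genes moved in opposite directions. Cirbp stood at 10.08, 11.04 and 11.07 on the P0 arrays, against 8.96, 8.53 and 8.88 on the E19 arrays. P0 replicate 1 was the lowest of the P0 arrays and still lay above every E19 array, and the rise was 1.94 ± 0.21 (3.84-fold; adjusted p = 4.46e-07). Rbm3 stood at 6.27, 6.31 and 6.15 at P0, against 7.23, 7.03 and 6.97 at E19, and fell by 0.83 ± 0.16 (adjusted p = 0.000757). Its P0 values lay below the array median, where the size of a fall can be understated. Both genes kept their call with the chip family term (1.68 for Cirbp and -1.12 for Rbm3) and with the chip block (2.04 and -1.32). Of the other 3 members of the list, the splicing factors Srsf5 and Sf3b1 were called higher (1.28 ± 0.33 and 0.41) and Rtn3 did not pass (0.36). Srsf5 did not overlap between ages but was lowest among P0 arrays on replicate 3 (12.10, 11.49 and 10.78 at P0, 9.80, 10.15 and 10.57 at E19), and with the chip block it changed by 0.13. Another Srsf5 probe was at -0.24 and not called.

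Metallothioneins and antioxidant enzymes rose in 8 of 19 measured members. Mt1, which binds zinc and copper, stood at 12.44, 13.15 and 13.21 at P0, against 11.40, 11.17 and 11.34 at E19. The groups did not overlap and the rise was 1.63 ± 0.19 (3.09-fold; adjusted p = 1.55e-06), with 1.61 and 1.66 in the chip fits. The zinc-sensing activator of metallothionein genes, Mtf1, stood at 8.49, 8.66 and 8.62 at P0, against 7.10, 7.29 and 7.08 at E19. Its P0 values lay within a narrow band above all E19 values, and it rose by 1.43 ± 0.11 (adjusted p = 1.35e-09), with another Mtf1 probe at -0.13 and not called. Mt2 stood at 7.34, 7.74 and 8.48 at P0, against 7.12, 7.12 and 7.12 at E19, a rise of 0.74 ± 0.19 carried most by P0 replicate 3. Mt3, the brain metallothionein, rose by 0.93 ± 0.29 with overlap-free but broad E19 values (10.91, 10.88 and 10.77 at P0, 9.48, 9.82 and 10.47 at E19). Nqo1, a quinone reductase driven by the oxidant sensor Nrf2, had 7.88, 8.13 and 7.83 at P0, against 7.23, 7.14 and 7.19 at E19, and rose by 0.76 ± 0.11 (adjusted p = 4.41e-05). The glutathione enzymes Gpx1, Gpx4, Gstm1 and Gsta4 rose too, by 0.50, 0.58, 0.53 and 0.69, though Gpx1 was -0.37 with the chip block. In this list 1 member fell, the glutathione synthesis gene Gclc (-0.51), and 10 did not pass, and the median change was 0.22 beside 0.03 over all genes, of which 11% rose and 9.83% fell. Mt1, Nqo1 and Gpx4 were the members called higher in both chip fits.

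Genes that respond to glucocorticoids gave a mixed picture. Of 20 measured members 7 were called higher and 1 lower, where 11% and 9.83% were over all genes. With the chip family term 5 and 0 were called, and with the chip block 1 and 0. The list shares Mt1 and Mt2 with the metallothionein list. Cdkn1a, the cell cycle inhibitor p21, stood at 10.89, 10.87 and 11.07 at P0, against 9.77, 9.87 and 10.10 at E19. The groups did not overlap (rise of 1.03 ± 0.19, adjusted p = 0.00059), though the value with the chip block was 0.38. The period gene Per1 stood at 7.55, 7.98 and 7.69 at P0, against 6.91, 7.09 and 7.08 at E19, a rise of 0.71 ± 0.18 that became -0.05 with the chip block. Fkbp5, a co-chaperone of the glucocorticoid receptor and a standard readout of it, stood at 8.40, 8.38 and 8.77 at P0, against 8.38, 8.63 and 8.75 at E19. Its values overlapped and it did not pass (-0.07 ± 0.16, adjusted p = 0.796), nor did the classical targets Tsc22d3 (0.09), Sgk1 (0.13) or Pdk4 (0.06 ± 0.11).

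Immediate early genes, which are switched on within minutes by neuronal activity, growth factors or stress, rose for some members only. Egr1 stood at 8.18, 8.44 and 9.07 on the P0 arrays, against 7.25, 7.19 and 7.45 on the E19 arrays, with P0 replicate 3 highest and no overlap. It rose by 1.27 ± 0.20 (adjusted p = 8.99e-05), by 1.57 with the chip family term and by 1.18 with the chip block, where its adjusted p was 0.0614. Fos had 7.31, 7.05 and 7.31 at P0, against 6.28, 6.61 and 6.85 at E19, and rose by 0.64 ± 0.11 (adjusted p = 0.000278), a call kept in both chip fits. Jun rose by 0.71 ± 0.23, with 8.35, 8.35 and 8.92 at P0 and 7.27, 8.12 and 8.10 at E19. Of 15 measured members 4 were called higher and 1 lower, the activity-dependent factor Npas4 (-0.44). Arc, Junb, Egr2, Egr3 and Nr4a3 did not pass, with changes from -0.17 to 0.0001. The list median was -0.05 beside 0.03 over all genes, of which 11% rose and 9.83% fell.

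Among clock genes 4 of 13 were called higher and 2 lower, with 4 and 0 under the chip family term and 2 and 0 under the chip block. Without a chip term the shares over all genes were 11% higher and 9.83% lower. Tef, a PAR-domain factor that follows the clock, stood at 10.79, 11.08 and 10.99 at P0, against 9.98, 10.27 and 10.19 at E19, and rose by 0.81 ± 0.12 (adjusted p = 3.78e-05) without overlap. Per1 (above), Nr1d1 (0.43) and Ciart (0.37) were the other rises, and the repressors Bhlhe40 and Bhlhe41 were called lower (-0.47 ± 0.17 and -0.31). The core activators Clock and Arntl did not pass (-0.09 and -0.34). Csnk1d, a kinase that phosphorylates period proteins, was among the 12 largest rises, with 9.71, 9.73 and 9.81 at P0, against 8.17, 8.31 and 8.69 at E19. Its rise was 1.36 ± 0.16 (adjusted p = 1.25e-06), and of 3 other probes for it 1 was called higher and 0 lower. The hour of collection is not given for either age, so circadian time was not tested.

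**Figure D1:**
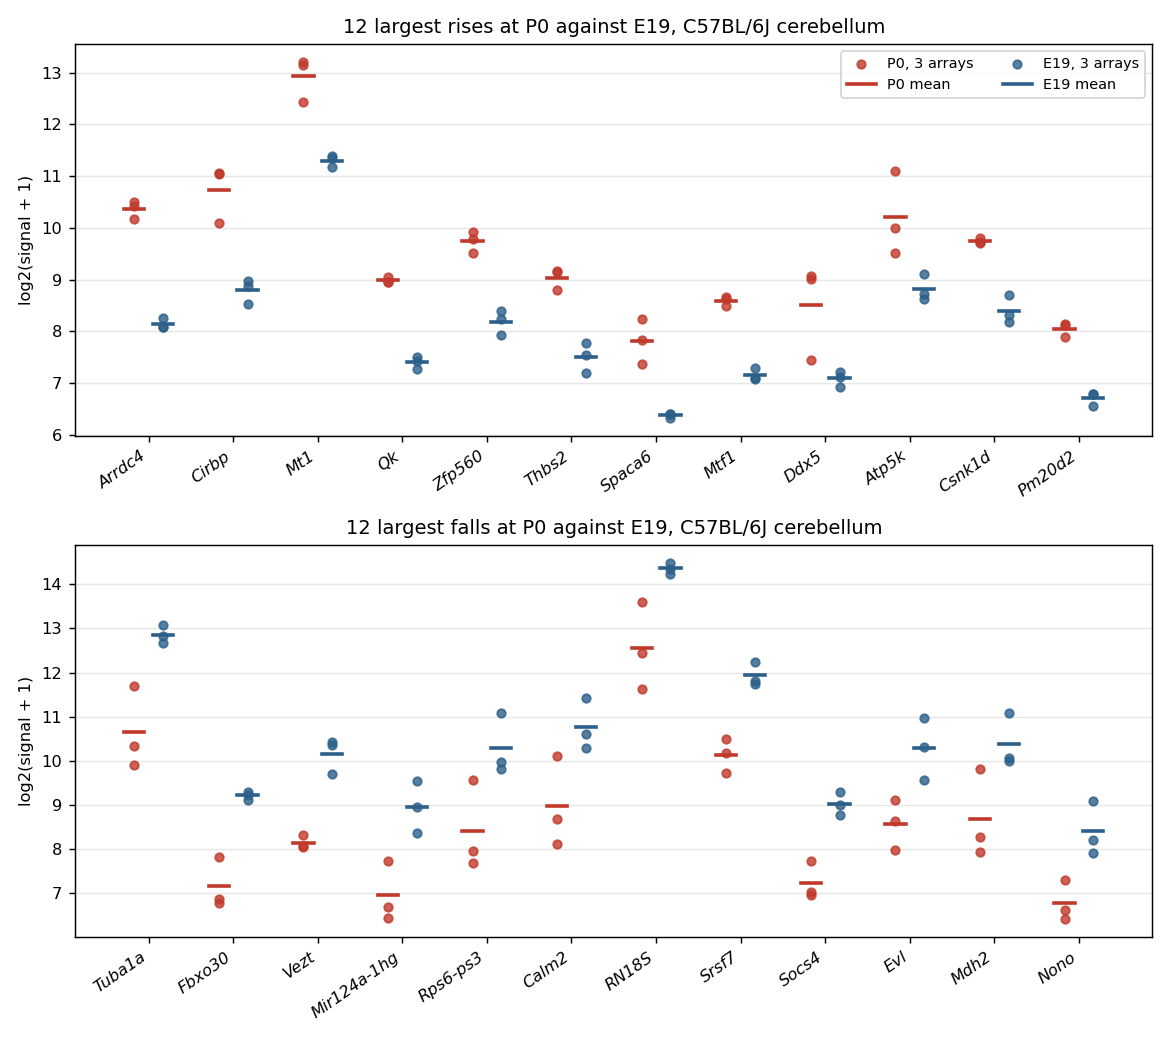
Levels of the genes with the 12 largest called rises (top) and the 12 largest called falls (bottom), as log2(signal + 1) on the y axis, for each of the 3 P0 arrays (red, left of each pair) and the 3 E19 arrays (blue, right), with bars at the group means. Arrdc4 lay between 10.18 and 10.49 at P0, above the 8.08 to 8.25 of E19, whereas Ddx5 was high on P0 replicates 1 and 2 only.

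The other genes among the 12 largest rises were of varied function. Qk, an RNA-binding protein that guides splicing in glia, stood at 9.06, 8.96 and 8.96 at P0, against 7.50, 7.42 and 7.27 at E19, and rose by 1.59 ± 0.15 (adjusted p = 8.25e-08). Thbs2, a secreted thrombospondin that promotes synapse formation, stood at 8.80, 9.14 and 9.17 at P0, against 7.19, 7.55 and 7.77 at E19, and rose by 1.53 ± 0.12 (adjusted p = 4.32e-09). The zinc finger gene Zfp560, the sperm-egg fusion gene Spaca6 and the dipeptidase gene Pm20d2 rose by 1.56 ± 0.19, 1.44 ± 0.15 and 1.34 ± 0.11. All of these were free of overlap, which the rule for the largest rises requires. They kept their call in both chip fits and without each of the 6 arrays. Other probes of Zfp560 and Spaca6 were near 0 (-0.002 and -0.0183) and not called. Spaca6 stood at 7.38, 7.83 and 8.24 at P0, against 6.32, 6.40 and 6.41 at E19. Its E19 values lay about at the array median, and it met the condition on level through the P0 arrays only. Atp5k, a small subunit of ATP synthase, rose by 1.39 ± 0.33 with 9.52, 10.003 and 11.09 at P0 and 9.11, 8.72 and 8.63 at E19, and another Atp5k probe was called in the opposite direction (-1.34). Ddx5, an RNA helicase, stood at 9.02, 9.06 and 7.44 at P0, against 7.12, 6.93 and 7.22 at E19. Its high values were those of the P0 arrays that share a chip, and it changed by 0.11 with the chip family term and -0.12 with the chip block.

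The 12 largest falls divided by how they held. Vezt, which encodes the adherens junction protein vezatin, stood at 8.07, 8.04 and 8.33 at P0, against 10.42, 10.37 and 9.70 at E19, and fell by 2.02 ± 0.15 (4.04-fold; adjusted p = 7.95e-10). The change was -1.99 with the chip family term and -2.08 with the chip block, and another Vezt probe was called lower as well (-1.14). Fbxo30, an F-box subunit of ubiquitin ligases, stood at 6.88, 6.79 and 7.82 at P0, against 9.12, 9.30 and 9.23 at E19, and fell by 2.06 ± 0.30 (adjusted p = 3e-05). A dimmer Fbxo30 probe was not called (-0.07). The host transcript of the neuronal microRNA miR-124, Mir124a-1hg, stood at 6.68, 6.45 and 7.73 at P0, against 9.55, 8.95 and 8.36 at E19, and fell by 1.999 ± 0.36 (adjusted p = 0.00033); the mature microRNA was not measured. Srsf7, a serine/arginine-rich splicing factor, stood at 10.51, 9.73 and 10.19 at P0, against 12.24, 11.75 and 11.82 at E19, and fell by 1.79 ± 0.20 (adjusted p = 5.42e-07). Another bright Srsf7 probe did not change (-0.0088, with means of 11.05 at P0 and 11.06 at E19), so the fall rests on 1 probe. Socs4, an inhibitor of cytokine signalling, fell by 1.78 ± 0.30, but its other 2 probes were called higher (0.51 and 0.79). The probes that stand for these 5 genes kept their call in both chip fits and without each of the 6 arrays.

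The remaining 7 large falls did not hold in this way. They were Tuba1a (alpha-tubulin), Rps6-ps3 (a ribosomal protein pseudogene), Calm2 (calmodulin), RN18S (18S ribosomal RNA, the name in the files), Evl (an actin regulator), Mdh2 (mitochondrial malate dehydrogenase) and Nono (a paraspeckle protein). Tuba1a stood at 10.34, 9.91 and 11.69 at P0, against 13.09, 12.66 and 12.82 at E19, a fall of 2.21 ± 0.53 (adjusted p = 0.00501) that was 0.17 with the chip block. Calm2 stood at 8.68, 8.13 and 10.10 at P0, against 11.43, 10.28 and 10.61 at E19, and changed by -0.08 with the chip block. Another Calm2 probe was at 0.56 and not called. In Rps6-ps3, Calm2, Evl, Mdh2 and Nono E19 replicate 1 was the highest E19 array and P0 replicate 3 the highest P0 array. RN18S moved further down with the chip block (-4.12) than without it (-1.80 ± 0.55), and with the chip family term its adjusted p was 0.105. None of these 7 passed with the chip family term (adjusted p from 0.0503 to 0.239), where the changes were -1.97 for Tuba1a, -1.81 for Rps6-ps3, -1.90 for RN18S, -1.58 for Evl, -1.58 for Mdh2, -1.67 for Nono and -1.42 for Calm2.

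**Figure D2:**
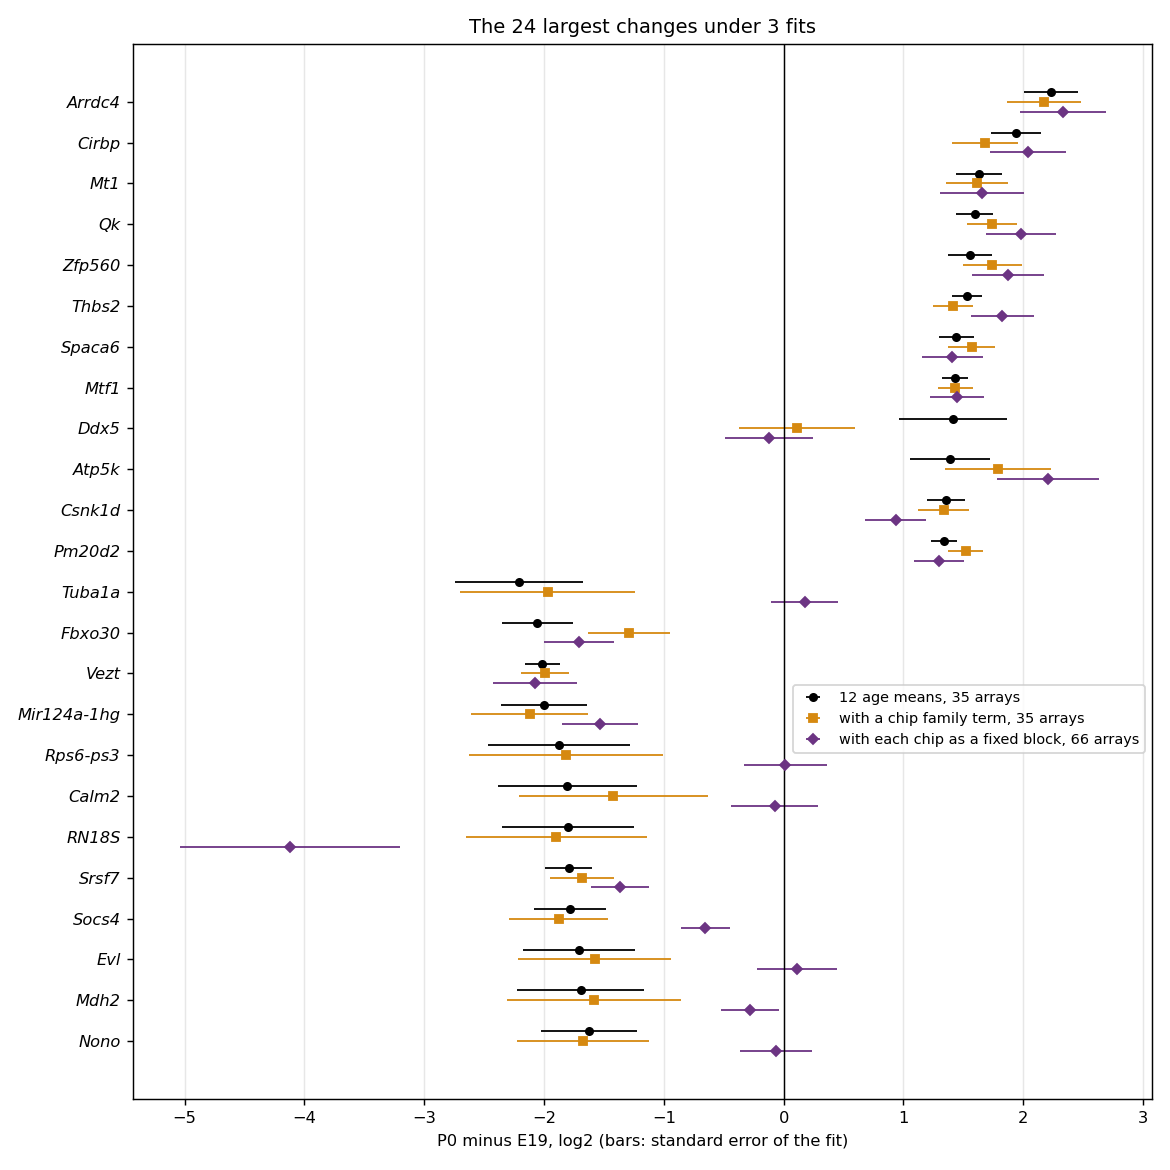
The change P0 minus E19 (x axis, log2, with the standard error of each fit) for the 24 largest called changes, from the age means alone (circles), with a chip family term (squares) and with each chip as a fixed block (diamonds). Arrdc4 gave 2.23, 2.17 and 2.33 in the 3 fits and Vezt -2.02, -1.99 and -2.08, whereas Tuba1a gave -2.21, -1.97 and 0.17.

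P0 was also set against the mean of the ages on both sides of it. The contrast of P0 with the mean of E19 and P3 called 2041 probes higher (7.9%) and 1723 lower (6.67%); the test of the step at birth against the step after it is the same contrast and gives the same calls. With chip family as a term 818 and 324 were called, and with the chip block 444 and 374. P3 holds 2 earlier-numbered and 1 later-numbered array. Lrrtm1, a leucine-rich synaptic adhesion protein, stood at 8.43, 8.54 and 8.78 on the E19 arrays, 9.88, 9.91 and 9.94 on the P0 arrays and 8.58, 8.32 and 8.62 on the P3 arrays. Its 3 P0 values lay close together and above all values of both neighbours, a departure of 1.36 ± 0.13 (adjusted p = 5.38e-08). Cartpt, the precursor of the CART neuropeptides, stood at 8.66, 9.01 and 9.02 at E19, 9.51, 10.07 and 10.51 at P0 and 8.77, 8.72 and 8.65 at P3, a departure of 1.23 ± 0.16 (adjusted p = 1.8e-05), and its mean went on down to 6.35 at P9. Arrdc4, Thbs2, Spaca6 and Qk were the other 4 largest upward among genes whose P0 arrays all lay above every E19 and P3 array, with departures of 1.46 ± 0.20, 1.09 ± 0.11, 1.12 ± 0.13 and 1.15 ± 0.13. For these 4 genes P3 lay above E19 too, by 1.55, 0.89, 0.65 and 0.89, and for Arrdc4 the departure was mostly from E19. Cirbp departed by 1.36 ± 0.18, about as much as Lrrtm1, but its lowest P0 array lay below the highest P3 array (9.82, 9.91 and 10.11 at P3), and its P3 mean lay 1.16 above E19. Downward, Vezt (-1.37 ± 0.13), RN18S (-1.76 ± 0.48), Socs4 (-1.37 ± 0.26), Mdh2 (-1.52 ± 0.46) and the RNA-export gene Sarnp (-1.43 ± 0.34) were lowest at P0, and for Vezt P3 minus E19 was still -1.30. Ttr, the thyroxine carrier of choroid plexus, was named by the same rule (-2.01 ± 0.43) because of P3 alone, with 7.31, 7.41 and 7.41 at E19, 6.96, 7.30 and 7.07 at P0 and 10.41, 11.79 and 10.39 at P3. Of other choroid plexus and meningeal markers, Dcn, Slc6a13, Lum and Clic6 were also higher at P3 than at P0 (3.72, 2.98, 1.19 and 0.64). Folr1 and Col1a1 were not (-0.0081 and -0.54). The part of such tissue in the contrast with P3 was not tested.

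**Figure D3:**
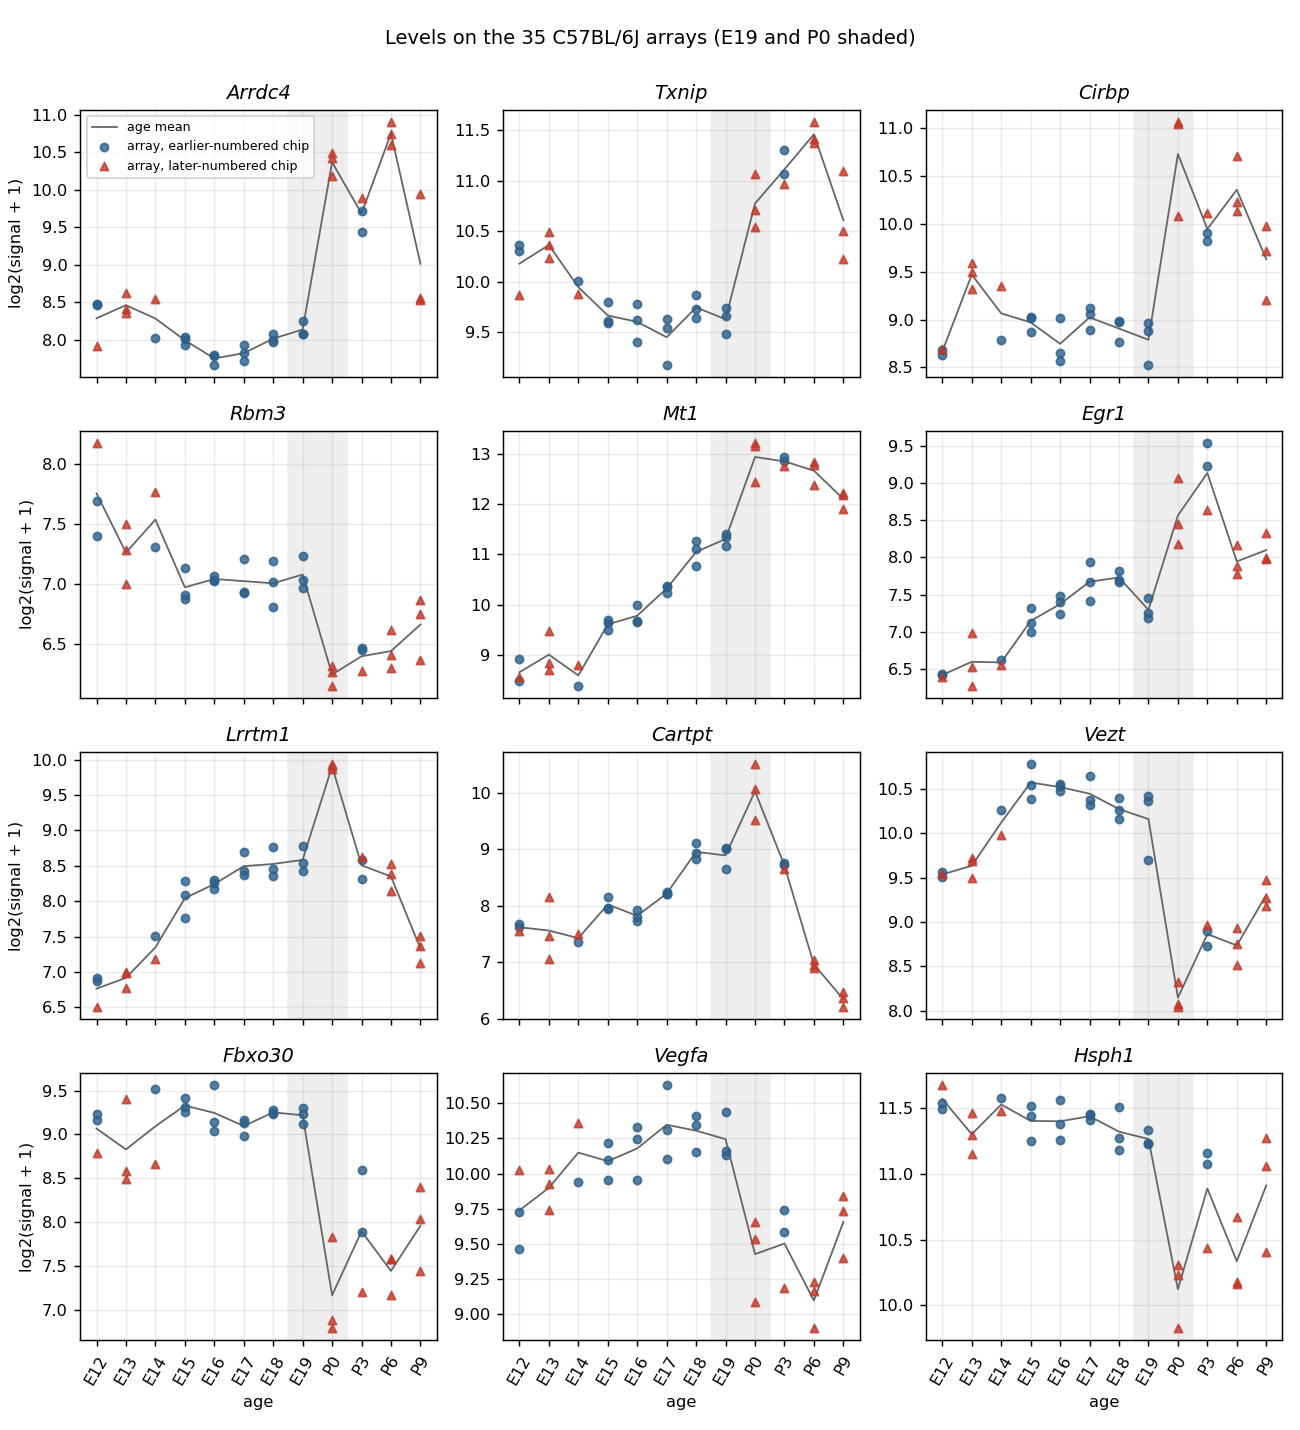
Levels of 12 genes over the 12 C57BL/6J ages (x axis, youngest to oldest, E19 and P0 shaded), as log2(signal + 1), with a point per array marked by chip family and a line through the age means. Lrrtm1 and Cartpt peaked at P0, Vezt was lowest there, and Mt1 had means of 8.65 at E12, 11.30 at E19, 12.93 at P0 and 12.84 at P3.

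Genes induced by low oxygen were among the falls. Of 23 measured hypoxia and HIF genes 6 were called lower and 0 higher, with a median of -0.20 beside 0.03 over all genes. The shares over all genes were 9.83% lower and 11% higher. Ankrd37, an ankyrin repeat gene induced by HIF, stood at 7.52, 7.43 and 8.34 at P0, against 9.07, 8.67 and 8.90 at E19, and fell by 1.12 ± 0.19 (adjusted p = 0.000252). Vegfa, the vascular growth factor, stood at 9.54, 9.09 and 9.66 at P0, against 10.13, 10.16 and 10.44 at E19, and fell by 0.82 ± 0.17 (adjusted p = 0.00192). All P0 values of both genes lay below all E19 values, and both kept their call in both chip fits. The other falls were the glycolytic kinase Pgk1 (-0.65 ± 0.16), the collagen hydroxylase P4ha1 (-0.58), the histone demethylase Kdm3a (-0.52) and Ndrg1 (-0.44), and with the chip block Kdm3a and Ndrg1 were near 0 (0.01 and 0.07). Ldha, Slc2a1, Egln3 and Adm did not pass, with changes of -0.41, -0.24, -0.23 and -0.20. With the chip family term 2 members were called lower and with the chip block 6, with 0 higher in each.

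Cholesterol synthesis genes, targets of SREBP2, also leaned downward. Of 19 measured members 7 were called lower and 0 higher, with a median of -0.43. Over all genes 9.83% were called lower and 11% higher, and the median was 0.03. Msmo1, a sterol methyl oxidase, stood at 10.58, 10.41 and 10.37 on the P0 arrays, against 11.11, 11.74 and 11.84 on the E19 arrays, and fell by 1.11 ± 0.20 (adjusted p = 0.000319). Sc5d, a sterol desaturase, stood at 7.25, 7.35 and 7.18 at P0, against 8.34, 8.18 and 8.07 at E19, and fell by 0.94 ± 0.18 (adjusted p = 0.000725). Nsdhl, Stard4, Cyp51, Idi1 and Hsd17b7 fell by smaller amounts (-0.65 for Nsdhl). The squalene epoxidase gene Sqle (-0.43) and Srebf2 itself (0.07) did not pass. In each chip fit 4 members were called lower and 0 higher, and Msmo1 and Nsdhl were called lower in both.

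Genes of protein folding and of the amino acid and endoplasmic reticulum stress response showed falls in chaperones. Hsph1, a cytosolic HSP110 chaperone, stood at 10.23, 9.83 and 10.31 at P0, against 11.23, 11.23 and 11.33 at E19, and fell by 1.14 ± 0.18 (adjusted p = 9.67e-05), a call kept in both chip fits. Hsp90aa1 fell by 1.34 ± 0.44, with 10.51, 10.18 and 10.52 at P0 and 12.34, 11.49 and 11.39 at E19, and it changed by -0.70 with the chip block without passing. The mitochondrial chaperonin Hspd1 and the heat shock factor Hsf1 were called lower too (-0.73 ± 0.21 and -0.50), with another Hspd1 probe at 0.53 and not called. The small heat shock proteins Cryab (0.69) and Hspb1 (0.36) and the HSP70 relative Hspa4l (0.42) were called higher, so the heat shock list of 13 had 3 rises and 4 falls, against 3 and 2 with the chip family term and 0 and 2 with the chip block. Of 20 measured amino acid and ER stress genes 6 fell and 0 rose, with a median of -0.35. Among all genes 9.83% fell and 11% rose, with a median of 0.03. The median of the stress list was -0.19 with the chip family term, with 3 called lower and 0 higher. With the chip block it was -0.04, with 4 lower and 1 higher. Hspa5, the ER chaperone BiP, stood at 6.62, 6.50 and 6.58 at P0, against 8.74, 7.78 and 8.004 at E19, and its fall of 1.60 ± 0.39 was -0.18 with the chip block. Vldlr, a reelin receptor that this list holds as a target of the stress factor Atf4, fell by 0.96 ± 0.13 (adjusted p = 7.88e-06) and kept its call in both chip fits, although 3 other Vldlr probes were not called (0.07 to 0.43). Atf4 itself (-0.73), Asns (-0.33), Ddit3 (0.34) and Trib3 (0.02) did not pass.

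Neuronal genes changed modestly, and their counts stand beside 11% called higher and 9.83% called lower over all genes. Of 17 measured Purkinje cell genes 5 were called lower and 1 higher, but 1 lower and 2 higher with the chip family term and 2 lower and 1 higher with the chip block. The reelin adaptor Dab1 stood at 8.82, 8.78 and 9.02 at P0, against 9.75, 9.47 and 9.63 at E19, and fell by 0.74 ± 0.17 (adjusted p = 0.00365), but 1 of its other probes was called higher and it changed by -0.06 with the chip block. Bcl11a, a zinc finger factor, stood at 10.10, 10.03 and 10.21 at P0, against 11.15, 10.73 and 10.43 at E19, and fell by 0.66 ± 0.19, with a call in both chip fits. Another Bcl11a probe of similar level was not called (0.18, with means of 10.22 at P0 and 10.04 at E19). The fall lost its call from the 6 arrays alone, without E19 replicate 1 and without P0 replicate 2. Foxp2, Gad1 and Calb1 were called lower by -0.55, -0.53 and -0.39, and Lhx5 was called higher at 0.61 ± 0.16. None of these 4 passed with the chip family term (-0.52, -0.54, -0.28 and 0.44 in that order). With the chip block Foxp2 was called lower (-1.23), whereas Gad1 (-0.47), Calb1 (0.30, the opposite sign) and Lhx5 (0.12) did not pass. Pcp2, Itpr1 and Rora did not pass. For GABA and glycine receptors and chloride transport 2 of 15 fell and 0 rose. The receptor subunit Gabra2 stood at 6.92, 6.86 and 7.002 at P0, against 7.89, 7.83 and 7.93 at E19, with no overlap and a fall of 0.95 ± 0.13 (adjusted p = 2.13e-05), which both chip fits kept. The chloride transporters that set the sign of the GABA response did not pass: Slc12a5 (KCC2) stood at 6.20, 6.14 and 6.48 at P0 and 6.59, 6.51 and 6.56 at E19, near the floor, and Slc12a2 (NKCC1) stood at 10.55, 10.33 and 10.70 at P0 and 10.50, 10.67 and 10.74 at E19.

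The lists that follow stand beside 11% called higher and 9.83% called lower over all genes. Synapse genes showed 2 rises and 3 falls among 32. The AMPA receptor subunits Gria4 and Gria2 were lower (-0.85 ± 0.19 and -0.77 ± 0.20) and Camk2b higher (0.44 ± 0.15). With the chip family term 2 synapse genes were called in each direction, and with the chip block 0 higher and 1 lower. In this list 0 calls were kept in both chip fits. Gria4, Gria2 and Camk2b lost their call in 2, 5 and 15 of 24 settings, among them the chip block. Granule cell progenitor and SHH genes gave 2 rises and 3 falls of 16, 0 and 1 with the chip family term, and 4 and 0 with the chip block, and 0 calls were kept in both chip fits. Ccnd2, the cyclin of granule cell progenitors, stood at 12.65, 12.45 and 12.25 at P0, against 13.03, 13.20 and 12.92 at E19, and fell by 0.60 ± 0.12 (adjusted p = 0.00145), but changed by 0.10 with the chip block. Zic2, a zinc finger factor of the granule lineage, was called higher (0.95 ± 0.32), and with the chip block its change was 0.23 and did not pass. Granule neuron genes gave 1 rise (Nfix, 0.84 ± 0.25) and 1 fall (Neurod1, -1.31 ± 0.42) of 16. Cell cycle genes gave 1 rise and 4 falls of 24. The replication helicase Mcm6 and the mitotic cyclin Ccnb1 were the larger falls (-1.16 ± 0.31 and -0.90 ± 0.17), with Cdc20 higher (0.53), while Mki67, Top2a and Cdk1 did not pass (-0.40, -0.09 and 0.15). Another Mcm6 probe was not called (0.14, with means of 9.88 at P0 and 9.74 at E19). With the chip block 0 cell cycle members were called in either direction.

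Microglia and macrophage genes leaned upward. Of 16 measured members 6 were called higher and 0 lower, with a median of 0.24. Over all genes 11% were called higher and 9.83% lower, and the median was 0.03. The complement genes C1qa, C1qb and C1qc were all called higher, the third at 8.11, 8.19 and 8.04 on the P0 arrays, against 7.25, 7.63 and 7.54 on the E19 arrays (rise of 0.64 ± 0.13, adjusted p = 0.000861; also called in both chip fits). Fcer1g, an Fc receptor subunit, rose by 0.80 ± 0.24 and the lysozyme gene Lyz2 by 0.49 ± 0.13. The microglial receptors Cx3cr1, Csf1r and Trem2 did not pass (0.07, -0.15 and 0.35). The mean level over the list was 7.14, 7.24 and 7.39 at P0, against 6.96, 7.02 and 7.15 at E19, so the lowest P0 array lay slightly below the highest E19 array. With the chip family term 6 members were called higher and with the chip block 2.

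Other glial and vascular genes were called in both directions, beside 11% higher and 9.83% lower over all genes. Of 19 astroglia and Bergmann glia genes 4 rose and 1 fell. Apoe, the lipid carrier of astrocytes, stood at 10.35, 10.60 and 10.37 at P0, against 9.37, 9.45 and 9.89 at E19, and rose by 0.87 ± 0.14 (adjusted p = 0.000105), then by a further 0.76 from P0 to P3. Apoe changed by 0.72 with the chip family term, where it was called, and by 0.74 with the chip block, where it was not (adjusted p = 0.149). Sparcl1, a matricellular protein of astroglia, was the member called lower (-1.31 ± 0.43), and it lost its call in 12 of 24 settings, among them the chip family term (-1.31) and the chip block (-0.31). Of 19 oligodendrocyte and myelin genes 3 rose (Bcas1, 0.57 ± 0.14; Sox10, 0.48 ± 0.14; Mag, 0.46) and 1, Mog, fell (-0.87 ± 0.19). The myelin protein gene Mbp had 8.28, 8.50 and 8.67 at P0, against 7.77, 7.66 and 8.15 at E19, and did not pass (0.63 ± 0.25, adjusted p = 0.0738). In the endothelial and pericyte list of 19 there were 3 rises and 2 falls: the tight junction gene Cldn5 (0.66 ± 0.18) and Itm2a (0.61 ± 0.19) were higher, the pericyte genes Rgs5 (-0.91 ± 0.21) and Kcnj8 (-0.57) lower. With the chip family term and the chip block Cldn5 changed by 0.55 and 0.29, Itm2a by 0.24 and 0.67 and Rgs5 by -0.75 and -0.25, with no call in either fit. Kcnj8 was called lower with the chip block (-0.64) and not with the family term (-0.47, adjusted p = 0.0559). Interferon response genes gave 3 rises, led by the MHC class I genes H2-D1 (0.86 ± 0.17) and B2m (0.64 ± 0.20), and 2 falls of 13 (Ifit2, -0.54 ± 0.17). Both MHC genes were close to 0 with the chip block (0.09 and -0.04). In the astroglia, oligodendrocyte, endothelial and interferon lists 0 calls were kept in both chip fits.

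Markers of tissue that a dissection could carry over were examined in small lists, and some of them moved with the chip block. From the age means, 11% of all genes were called higher and 9.83% lower. Of 14 blood and haem genes 1, Car2, was called higher, and Hba-a1 and Hbb-b1 did not pass (-0.16 ± 0.15 and -0.07 ± 0.18). With the chip family term the haemoglobin genes changed by 0.10 and 0.33 without passing. With the chip block Hba-a1 was called lower (-1.15, adjusted p = 0.0358), and Hbb-b1 was -1.14 (adjusted p = 0.0627). The mean level of the blood list was 8.20, 8.27 and 8.28 at P0, against 8.21, 8.23 and 8.19 at E19. Of 18 meningeal and fibroblast genes 1 was called higher, Dcn, with 7.20, 7.42 and 7.43 at P0 and 5.999, 7.33 and 6.48 at E19. Its change was 0.74 ± 0.26, and it was 0.78 and 1.77 with the chip family term and the chip block, where it did not pass (adjusted p = 0.153 and 0.0532). The mean of that list was 7.72, 7.67 and 7.63 at P0, against 7.42, 7.62 and 7.60 at E19. Limma called 0 of 10 choroid plexus genes and 0 of 10 caudal hindbrain and midbrain genes, where 3 and 1 had an unadjusted p under 0.05. With the chip family term 2 choroid plexus genes were called higher, beside 8.48% of all genes. With the chip block 1 hindbrain and midbrain gene was called higher, beside 4.92% of all genes. Their part in the other differences was not tested.

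**Figure D4:**
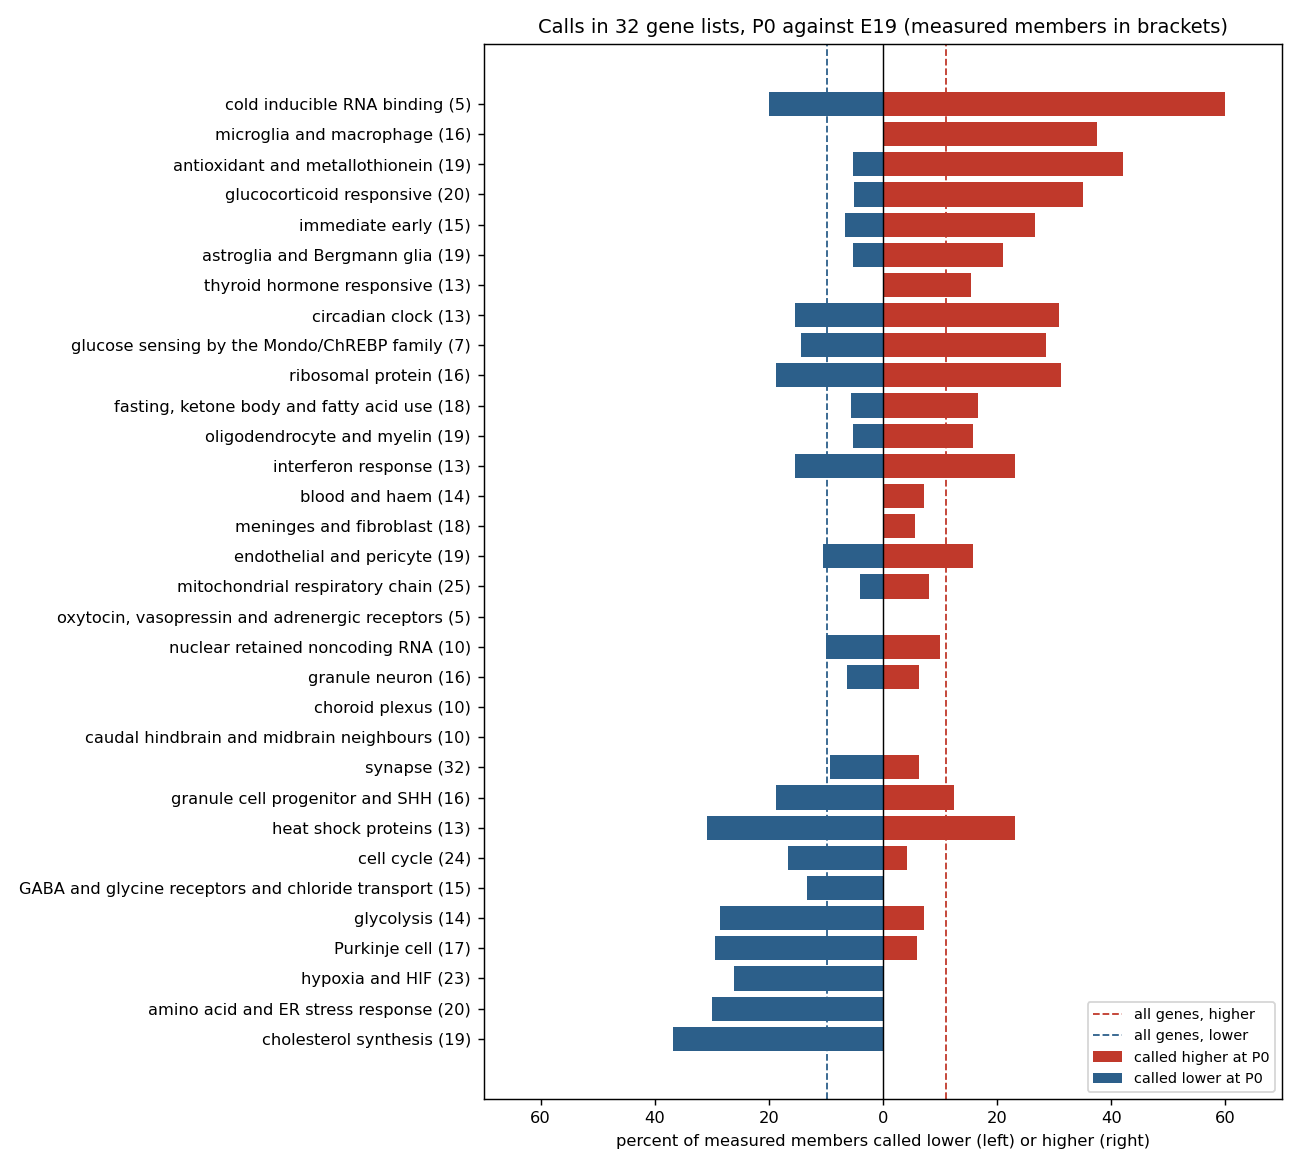
Percent of the measured members of 32 gene lists called higher (red, right) or lower (blue, left) at P0 than at E19, with dashed lines at the shares over all genes (11% higher and 9.83% lower). The microglia and antioxidant lists stand to the right of the line for all genes, and the cholesterol, ER stress and hypoxia lists to the left. The cold inducible list of 5, with 3 called higher and 1 lower, passes the lines on both sides.

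Genes of energy metabolism were split, beside 11% called higher and 9.83% called lower over all genes. Acat1, a mitochondrial thiolase used in ketone body breakdown, stood at 8.04, 8.42 and 8.22 at P0, against 7.09, 7.51 and 7.47 at E19, and rose by 0.87 ± 0.14 (adjusted p = 0.00016). Slc16a7, the neuronal monocarboxylate transporter MCT2, stood at 8.37, 8.34 and 8.39 at P0, against 9.57, 9.77 and 9.52 at E19, and fell by 1.25 ± 0.18 (adjusted p = 3e-05). Neither gene's groups overlapped and both calls held in both chip fits. With Ucp2 (0.67 ± 0.17) and Acadvl (0.37) higher, the list for fasting, ketone bodies and fatty acid use gave 3 rises and 1 fall of 18. The ketone body enzyme Oxct1 and the fasting gene Pdk4 did not pass (-0.29 and 0.06 ± 0.11). Glycolysis genes gave 1 rise (Pfkp, 0.79 ± 0.20) and 4 falls of 14, among them Pgam1 (-0.89 ± 0.28) and Pgk1, and 0 of these falls passed with the chip family term, where Pgam1 changed by -0.84 and Pgk1 by -0.53. With the chip block 2 glycolysis genes were called lower, while Pgam1 was 0.24 and Pgk1 -0.35 without passing. Respiratory chain genes gave 2 rises (Ndufa2, 0.62 ± 0.16; Cox5b, 0.52 ± 0.13) and 1 fall (Atp5a1, -1.59 ± 0.51) of 25. Of 16 ribosomal protein genes 5 rose, led by Rps15 (0.79 ± 0.15), and 3 fell, led by Rps24 (-0.89 ± 0.18). Ribosomal protein genes have many near-identical pseudogenes, and which copies a probe reads is uncertain.

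For the next 3 lists too, the shares over all genes were 11% called higher and 9.83% called lower. Thyroid hormone responsive genes gave 2 rises (Klf9, 0.47 ± 0.11, and Itih3, 0.42 ± 0.09) and 0 falls of 13, a count near the share over all genes. Itih3 kept its call in both chip fits, whereas Klf9 lost it in both (0.41 and 0.40, adjusted p = 0.0789 and 0.626), and another Klf9 probe was at -0.56. The thyroid target Hr did not pass (-0.01). Among 10 nuclear noncoding RNAs the imprinted transcript Kcnq1ot1 stood at 7.44, 7.58 and 7.98 at P0, against 8.92, 8.95 and 8.36 at E19, and fell by 1.08 ± 0.26 (adjusted p = 0.00499), while the snoRNA host Gas5 was called higher at 0.43 ± 0.15. For the receptors of oxytocin, vasopressin and adrenaline limma called 0 of 5 measured genes, where 1 had an unadjusted p under 0.05.

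Values of the DBA/2J strain stand beside these as a description, since DBA/2J has no E19 group here, its arrays are in a table of their own, and its P0 and E18 arrays lie on chips in the same order. Its P0 minus E18 fit called 626 of 13706 genes (4.57%). Arrdc4 changed there by 1.86 ± 0.26, Txnip by 1.22 ± 0.25, Cirbp by 1.40 ± 0.15, Mt1 by 2.24 ± 0.36 and Egr1 by 1.72 ± 0.27 (log2 ± SE, all called). Vegfa changed by -0.96 ± 0.19 and Hsph1 by -0.77 ± 0.15, both called, and Msmo1 by -1.03 ± 0.21. Of the 12 largest rises 9 were called in the same direction there, and of the 12 largest falls 5. Vezt changed by -1.08 ± 0.32 and Zfp560 by 0.72 ± 0.29, and neither passed (adjusted p = 0.0609 and 0.178). Cartpt changed by -0.12 ± 0.26 and Per1 by 0.05 ± 0.22, and neither passed (adjusted p = 0.84 and 0.934). Whether the strains differ was not tested, because the ages differ.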

How the data were processed

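The authors deposited 1 table per strain of average probe signals, whose unit is intensity on a linear scale per the file headers, and a matrix of scores with mean 8 and SD 2 on each array, used only as an alternative. The sources used here do not give the steps behind either before it was deposited. Neither detection p-values nor control probes were used. The number of arrays limits the precision.

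The 35 C57BL/6J arrays were quantile normalized and taken to log2(signal + 1). Of 46632 probes, 25843 were kept because in at least 1 age they exceeded the median of each of its arrays. Limma 3.58.1 (R 4.3.3, statmod 1.5.0) fitted 1 mean for each of 12 ages (23 residual degrees of freedom), with moderated two-sided tests and Benjamini-Hochberg adjustment over all kept probes, called at an adjusted p under 0.05. Symbols were matched to RefSeq for names (26307 probes by symbol, 7973 by an older symbol, 12352 with the file's name kept). The probes for Qk, Vezt, Spaca6, Socs4 and Mir124a-1hg carried Riken clone names and were matched as older symbols. Which transcripts these probes read was not tested. The kept probe with the highest mean stood for each gene.

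Named genes were the 12 largest called rises and the 12 largest called falls, above the array median on all 3 arrays of P0 or E19 and without overlap, the 6 largest departures from E19 and P3 each way, up to 3 called members of each of 32 lists, and a few genes fixed by name. Other list members are given with their list, and genes in the closing observations were chosen after their values were seen. The members and lists were chosen with earlier results of these data known. The fits and the code were tested on simulated data. The chip family term was chosen after seeing the data.

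The replicate numbers do not pair the arrays: deviations of same-numbered P0 and E19 arrays correlated at -0.113, 0.1075 and -0.2142. A few list members are not reported here. Besides the fit above, 24 settings were tried.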

Additional observations from a re-analysis of the deposited data

How the results depend on the processing

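Of 98 named called genes, 30 kept direction and call in all 24 settings, among them Arrdc4, Txnip, Cirbp, Rbm3, Mt1, Vezt, Vegfa and Hsph1. Calls of P0 against E19 were 2562 higher, 2387 lower and 406 of at least 2-fold. They were 947 and 1136 from the 6 arrays alone, 1604 and 1484 with chip as a random block, 1173 and 1215 with chip as a fixed block (628 of at least 2-fold), and 5092 and 4783 with array weights. With the array series (chips whose numbers begin alike) as a fixed block they were 1524 and 1167, and as a random block 1573 were lower and 269 at least 2-fold. Equal medians left 1318 higher, and the chip family term 958 lower. Leaving out 1 array gave 1312 to 2564 higher, 1238 to 2514 lower and 228 to 755 at least 2-fold. The lowest count of higher calls came without E19 replicate 1, of lower calls without P0 replicate 2 (1548 higher, 1238 lower), and the highest without P0 replicate 3; without E19 replicate 1 there were 1258 lower.

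P0 against the mean of E19 and P3 gave 2041 higher and 1723 lower. It gave 1285 higher without the quantile step, 1007 with equal medians and 1191 with chip as a random block. It gave 444 and 374 with chip fixed, 5567 and 4927 with array weights, 818 and 324 with chip family, and 897 lower with the array series fixed. Leaving out 1 array gave 706 to 2580 higher and 464 to 2348 lower, lowest without P0 replicate 2 and then without P0 replicate 1 (1264 and 777). As the step at birth against the step after, the same contrast called 3764 probes, with 2349, 818, 2424, 10494 and 1142 under chip random, chip fixed, series fixed, array weights and chip family, and 1170 to 4928 without 1 array. The step at birth against the step before called 485. It called 313 in the joint fit of both tables, 142 with chip random, 89 with the series fixed, 263 with the series random, 5236 with array weights and 885 with chip family in both tables, and 70 to 585 without 1 array.

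With chip fixed 4041 of 4949 called probes kept their sign. Of genes named by the rule these called changes turned sign: Ddx5 (-0.12), Tuba1a (0.17), Rps6-ps3 (0.014), Evl (0.11), Ccnb1 (0.29), Idi1 (0.0812), Per1 (-0.0492), Mlx (0.0302), Pgam1 (0.24), Ccnd2 (0.10), Neurod1 (0.19), B2m (-0.0414), Atp5a1 (0.0332) and Cox5b (-0.16). So did the list members Calb1 (0.30), Gpx1 (-0.37), Kdm3a (0.0066) and Ndrg1 (0.07). With the series fixed Ddx5 (-0.27), Mlx (0.11) and Pgam1 (0.0118) did, and with chip family in both tables Ddx5 (-0.0387). The causes were not tested. The replicate block gave 2488 higher and 2393 lower, and Gas5 was the named gene that lost its call in that pairing (adjusted p = 0.0603). Dim probes near the array median limit what can be measured.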

Other observations

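Among the 287 genes whose call held with the chip family term, with the chip block and without each of the 6 arrays, further genes stood out by size and were chosen after their values were seen. Fgf15, a fibroblast growth factor of the developing brain, stood at 7.64, 7.67 and 7.99 on the P0 arrays, against 9.46, 8.96 and 9.42 on the E19 arrays, and fell by 1.52 ± 0.18 (limma adjusted p = 2.33e-06). All 3 P0 values lay well below E19. Prdm13, a factor that specifies GABAergic neurons, stood at 8.91, 8.90 and 8.33 at P0, against 7.16, 7.52 and 7.83 at E19, and rose by 1.21 ± 0.18 (adjusted p = 3.03e-05). St8sia4, a polysialyltransferase that modifies the neural adhesion molecule NCAM, fell by 1.56 ± 0.24. Chordc1, a co-chaperone of HSP90, stood at 9.52, 9.85 and 9.65 at P0, against 10.85, 10.68 and 10.70 at E19, and fell by 1.07 ± 0.14, as Hsph1 did.

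The RNA-binding gene Tia1, a component of stress granules, stood at 8.72, 8.41 and 9.04 at P0, against 10.35, 10.26 and 9.94 at E19. It fell by 1.46 ± 0.19, and 2 of its other 3 probes were called lower. The snoRNA host genes Snhg16, Snhg9 and Snhg10 rose by 1.28 ± 0.18, 1.18 ± 0.21 and 0.99 ± 0.22, each free of overlap between the ages. Slc48a1, a haem transporter, stood at 9.71, 9.79 and 10.02 at P0, against 8.56, 8.66 and 8.75 at E19, and rose by 1.18 ± 0.11 (adjusted p = 5.16e-08).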
